A study of Mus musculus with 32 samples.

Results

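The genes described here are the matrix metalloproteinases (Mmp), the tissue inhibitors of metalloproteinases (Timp), the Adamts proteases with the related Adamtsl proteins, and the lysyl oxidases. They were taken by symbol: every gene entry starting with Mmp or Timp and a digit or with Adamts, together with Lox and Loxl1 to Loxl4. The rule found 56 of 41585 gene entries, namely 23 Mmp, 4 Timp, 19 Adamts, 5 Adamtsl and 5 lysyl oxidase genes. Their RNA was measured by sequencing in livers of wild-type (WT) C57BL/6 mice (the J substrain by the study's methods) and of Cyp2b-null mice of the same background, in which CRISPR/Cas9 had removed the Cyp2b9, Cyp2b10 and Cyp2b13 genes. Mice of both sexes, 10 weeks old at the start, were given normal chow (ND) or the CDAHFD, a high fat diet (62% fat) without choline whose protein is replaced by amino acids, with methionine at 0.1%, for 8 weeks. This gave 8 groups of 4 libraries: ND-fed WT, CDAHFD-fed WT, ND-fed Cyp2b-null and CDAHFD-fed Cyp2b-null mice, in each sex. The WT mice were bought and the Cyp2b-null mice were not, so genotype and source cannot be told apart, and chow and CDAHFD differ in many components besides choline, methionine and fat.

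Mmps are zinc proteases that are made as inactive proforms and, once activated, cut collagens, elastin and other matrix proteins. Timps bind the active site of Mmps and, to differing degrees, that of Adamts proteases, which process procollagens or cleave proteoglycans. Lysyl oxidases crosslink collagen and elastin fibres, and a fibrotic liver is known to accumulate crosslinked collagen made mainly by activated stellate cells. The CDAHFD is a diet used to bring on steatohepatitis with fibrosis in mice.

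Total counts ran from 2906411 to 10166959 per library, so that 3 counts, taken here as the floor, stood for 0.25 to 1.15 CPM, the counts of a gene scaled to a common library total. CPM values are scaled by trimmed mean of M values (TMM) factors, and errors are SD over 4 libraries unless given as the SE of a fitted log2 change. Counts of Cyp2b13 were 470 to 2351 in WT females and 0 or 1 in Cyp2b-null females, while in males Cyp2b13 was near 0 in both genotypes and Cyp2b9 on CDAHFD (118 to 364 in WT, 2 to 7 in Cyp2b-null) separated the genotypes. Among the 17 genes called higher on CDAHFD in all 4 diet comparisons, replicate 3 of the CDAHFD-fed Cyp2b-null males was the highest of its group for 11, replicate 3 of the CDAHFD-fed WT males for 10 and replicate 4 of the CDAHFD-fed WT females for 10. The labels number the libraries of a group 1 to 4 and do not say that they are separate animals, so the p-values measure the spread between these libraries.

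CDAHFD raised most of these genes that could be tested, in both sexes and genotypes. In CDAHFD-fed WT females 18 of 30 tested members were up-regulated and 1 was down-regulated against ND-fed WT females, where 13.9% of all tested genes were called higher and 10.2% lower (edgeR quasi-likelihood test, adjusted p under 0.05 over all genes tested). In Cyp2b-null females 21 of 30 were up-regulated and 0 down-regulated, against 16.9% and 13.9% of all genes. In WT males 23 of 33 were up-regulated and 1 down-regulated (18% and 15% of all genes), and in Cyp2b-null males 29 of 33 and 1 (20.3% and 17.1%). The median log2 change of the tested members was 1.31 in both female comparisons, 1.67 in WT males and 2.26 in Cyp2b-null males, beside medians between -0.02 and 0.03 over all genes tested. These counts and medians are a description only, because 10 of the 30 members tested in females and 16 of the 33 tested in males had fewer ND-fed libraries at the low-count cutoff than the 4 a gene needs, so that CDAHFD-fed libraries decided that they were tested. Of the 56 genes, 33 were tested in at least 1 sex and 23 in neither. Scaling by library size alone moved the median log2 change of all genes to between 0.28 and 0.37 and the share of called genes that were higher from 54.3% to 57.6% up to 85.8% to 89.8%, with 22 members higher in each female comparison, 27 in WT males, 29 in Cyp2b-null males and 0 lower in any.

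**Figure D1:**
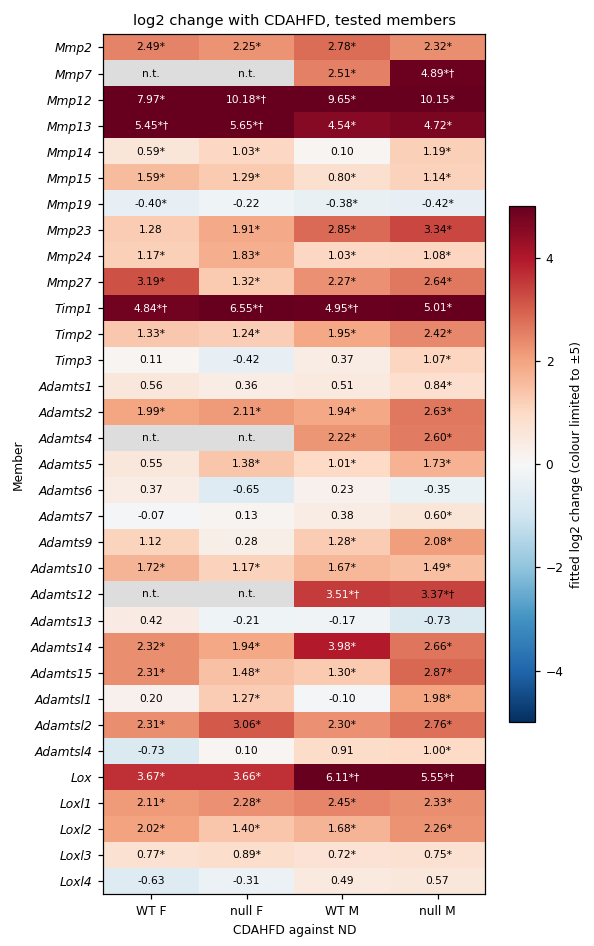
Heat map of the fitted log2 change with CDAHFD for the 33 tested members (rows) in WT and Cyp2b-null (null) females (F) and males (M) (columns); an asterisk marks an adjusted p under 0.05, a dagger a normal chow group with at most 3 counts in total (there the fitted value is no measure of size), and grey cells marked n.t. were not tested. Mmp12, Mmp13, Timp1 and Lox show the deepest red, and Mmp19 is the only gene marked as lower.

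Among the proteases, Mmp12 changed most. Mmp12 (chr9:7344397-7360461) encodes macrophage elastase, which degrades elastin. Its CPM in the 4 libraries of ND-fed WT females were 0.398, 0, 1.35 and 0.345 and in the 4 of CDAHFD-fed WT females 113, 148, 124 and 124. In Cyp2b-null females they were 0, 0, 0 and 0.335 on ND and 199.7, 181, 146 and 128 on CDAHFD. Every library of CDAHFD-fed females was above 100 CPM and no library of ND-fed females reached 2. In WT males Mmp12 was at 0.184, 0.165, 0 and 0.875 CPM on ND and 142, 251, 286 and 210.2 on CDAHFD. Cyp2b-null males had 0.111, 0.911, 0 and 0 CPM on ND and 229, 227, 345 and 292 on CDAHFD. The groups did not overlap in any of these 4 comparisons. The log2 change was 7.97 (SE 0.33, adjusted p = 1.32e-12) in WT females, 9.65 (SE 0.42, adjusted p = 2.56e-12) in WT males and 10.15 (SE 0.43, adjusted p = 7.73e-13) in Cyp2b-null males. The ND-fed Cyp2b-null females held only 2 Mmp12 counts in all, against 3813 on CDAHFD, a ratio of 1335-fold (95% counting interval 369 to 11030.0); such intervals cover counting error only.

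Mmp13, a collagenase that cuts fibrillar collagens, rose as well from a level near 0. Mmp13 (chr9:7272514-7283333) was at 6.78, 7.32, 7.18 and 13.7 CPM in CDAHFD-fed WT females and 16.9, 7.14, 6.78 and 9.65 CPM in CDAHFD-fed Cyp2b-null females, with 3 and 3 counts in all in the ND-fed groups. The ratio of CDAHFD to ND was 50.3-fold (95% counting interval 17 to 246) in WT females and 53.7-fold (95% counting interval 18.1 to 262) in Cyp2b-null females. Apart from 1 high library in each genotype, the CDAHFD-fed females lay between 6 and 10 CPM. In WT males it was at 0, 0.993, 0.137 and 0 CPM on ND and 3.79, 13.1, 5.38 and 7.63 on CDAHFD (log2 change 4.54, SE 0.67, adjusted p = 2.34e-05). Cyp2b-null males had 0.667, 0, 0 and 0 CPM on ND and 5.15, 5.41, 8.75 and 9.43 on CDAHFD (log2 change 4.72, SE 0.69, adjusted p = 1.57e-05). All 6 ND counts of that pair lay in replicate 1, and without it the fitted change was 8.49, which is no measure of size against a group then at 0, and the level on CDAHFD at least 32.7-fold higher, with 3 counts over the other ND libraries as the floor. Leaving out the only ND library with counts can only raise the change, so these values show dependence on 1 library. No ND-fed library reached 1 CPM and no CDAHFD-fed library was under 3.

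Mmp27 (chr9:7571396-7581885), a neighbour of Mmp12 and Mmp13, was raised at a much lower level. WT females had 0.398, 0.383, 0.337 and 0 CPM on ND and 1.75, 3.54, 2.79 and 1.72 on CDAHFD (log2 change 3.19, SE 0.55, adjusted p = 0.000202). Cyp2b-null females had 0.907, 0.595, 0.384 and 0.837 CPM on ND and 1.51, 1.9, 1.78 and 1.81 on CDAHFD (log2 change 1.32, SE 0.46, adjusted p = 0.0329). The ND libraries held 2, 1, 1 and 0 counts in WT and 3, 3, 1 and 5 in Cyp2b-null females, at or near the floor. Cyp2b-null females had the smaller fitted change, but neither the genotype difference on ND nor the interaction was called. In WT males the values were 0.736, 0, 0.549 and 0 on ND and 0.948, 1.87, 2.57 and 1.24 on CDAHFD (log2 change 2.27, SE 0.76, adjusted p = 0.025). In Cyp2b-null males they were 0.667, 0, 0 and 0 on ND and 1.93, 0.729, 2.42 and 1.44 on CDAHFD (log2 change 2.64, SE 0.79, adjusted p = 0.0116). All 6 ND counts of the Cyp2b-null males lay in replicate 1, and without it the fitted change was 6.38 and the level on CDAHFD at least 7.65-fold higher, by the same floor. As for Mmp13, leaving out that library could only raise the change. The groups did not overlap, but these are few reads. The call in Cyp2b-null females was lost with DESeq2, without the low-count filter (adjusted p up to 0.140) and without ND-fed Cyp2b-null female replicate 3 (0.0788). That in WT males was lost without CDAHFD-fed WT male replicate 3 or ND-fed WT male replicate 2 or 4 (up to 0.100).

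These 3 genes lie in a run of 10 Mmp genes over 427.1 kb of chromosome 9, and their neighbours were at or near 0 on ND too. Mmp7, matrilysin, was tested in males only and was up-regulated in both genotypes there, from 6 to 42 counts in all in WT males (log2 change 2.51, SE 0.91, adjusted p = 0.0376) and from 1 to 65 in Cyp2b-null males, a ratio of 45-fold (95% counting interval 7.8 to 1805). The call in WT males was lost with the replicate block (adjusted p = 0.0579) and without any 1 of 6 libraries, namely ND-fed WT male replicates 1, 2 and 3, CDAHFD-fed WT male replicates 3 and 4 and ND-fed Cyp2b-null male replicate 1 (up to 0.195). All 6 ND counts in WT males lay in replicate 4, at 1.31 CPM. The CDAHFD-fed WT males were at 0.416 to 3.04 CPM, so the diets overlapped. Without that ND library the fitted change was 6.41, no measure of size against a group then at 0, and the level on CDAHFD at least 10.8-fold higher. Leaving it out could only raise the change. In WT females, where Mmp7 was not tested, its counts went from 1 to 15 in all, a ratio of 12.2-fold (95% counting interval 1.87 to 513). Those of Cyp2b-null females went from 1 to 14, a ratio of 9.81-fold (95% counting interval 1.49 to 415). The diets overlapped in both. Mmp8, the neutrophil collagenase, passed no filter. Its counts went from 1 to 19 in all in WT females, a ratio of 15.4-fold (95% counting interval 2.45 to 641), from 4 to 7 in Cyp2b-null females, where the diets overlapped, from 0 to 25 in WT males and from 0 to 28 in Cyp2b-null males, at least 8.02-fold and 6.46-fold in the males with 3 counts over the ND group as the floor. Mmp1a, Mmp3, Mmp10, Mmp1b and Mmp20 had at most 2 counts in any of the 32 libraries. Mmp1a and Mmp1b are close copies of each other, so reads from either could have been discarded or split.

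**Figure D2:**
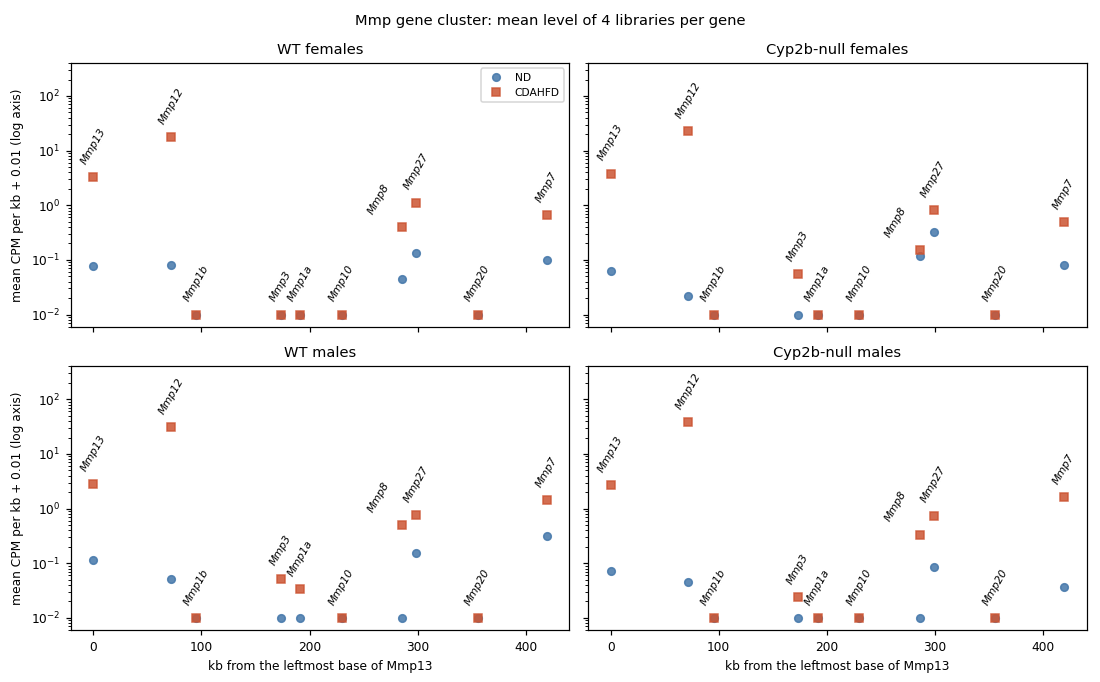
Mean level of 4 libraries for each of the 10 Mmp genes of the chromosome 9 cluster, as CPM per kb of exon plus 0.01 on a log axis, against the distance in kb from the leftmost base of Mmp13; circles are ND, squares CDAHFD, and each panel is 1 genotype and sex. Mmp12, Mmp13 and Mmp27 are higher on CDAHFD in all 4 panels, while Mmp1b, Mmp10 and Mmp20 stay at 0.

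The stretches just before the start sites of some genes of this cluster are shown as a description of their sequence. They are the 250 bases upstream of a RefSeq start (GRCm38.p6, forward strand for each gene shown), 5′ to 3′. Matches on either strand to TGANTCA (N is any base) and to TATAAA, which binds the basal transcription machinery, are in capitals. TGANTCA takes in TGACTCA and TGAGTCA, the core of the site bound by Fos and Jun proteins, but also other middle bases. For Mmp13 the window is chr9:7272264-7272513, for Mmp12 chr9:7344147-7344396 at its first start and chr9:7347124-7347373 at an internal one, for Mmp27 chr9:7571146-7571395 and for Mmp10 chr9:7502092-7502341. Mmp10 was added after its values were seen, as a neighbour with 0 counts in every library.
Mmp13: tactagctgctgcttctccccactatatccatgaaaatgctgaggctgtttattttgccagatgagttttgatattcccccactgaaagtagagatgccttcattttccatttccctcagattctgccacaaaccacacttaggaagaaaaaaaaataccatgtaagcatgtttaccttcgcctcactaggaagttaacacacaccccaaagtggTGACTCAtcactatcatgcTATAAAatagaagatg
Mmp12 first start: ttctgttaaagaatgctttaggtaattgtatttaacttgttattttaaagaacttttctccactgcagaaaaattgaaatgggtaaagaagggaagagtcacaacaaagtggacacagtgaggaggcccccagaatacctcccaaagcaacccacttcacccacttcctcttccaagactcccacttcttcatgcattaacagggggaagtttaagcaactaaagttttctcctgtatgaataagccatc
Mmp12 internal start: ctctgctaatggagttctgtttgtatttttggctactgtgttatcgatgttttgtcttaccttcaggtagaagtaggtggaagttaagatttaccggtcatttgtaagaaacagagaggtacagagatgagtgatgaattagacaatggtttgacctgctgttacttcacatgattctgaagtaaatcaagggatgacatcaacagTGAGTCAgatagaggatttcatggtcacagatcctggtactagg
Mmp27: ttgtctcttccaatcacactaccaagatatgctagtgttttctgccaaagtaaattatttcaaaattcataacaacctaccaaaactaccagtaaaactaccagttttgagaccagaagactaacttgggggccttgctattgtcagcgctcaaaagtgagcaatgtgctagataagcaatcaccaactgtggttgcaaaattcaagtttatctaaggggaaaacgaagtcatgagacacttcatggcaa
Mmp10: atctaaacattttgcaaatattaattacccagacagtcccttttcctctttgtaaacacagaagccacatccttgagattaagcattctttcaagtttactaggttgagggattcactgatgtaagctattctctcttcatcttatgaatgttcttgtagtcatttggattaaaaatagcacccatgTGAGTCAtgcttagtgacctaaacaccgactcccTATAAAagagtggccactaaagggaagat
TGANTCA was in the windows of 8 of the 10 cluster genes and TATAAA in those of 7, against 6.75% and 12.37% of 32851 promoter windows of the same length. A gene was counted if any of its windows matched, while the background counts single windows. Mmp7 and Mmp12 also have a window at an internal start. Of the 37 members with a window in the RefSeq table, these 8 were all that held TGANTCA, in Mmp20 as TGAATCA, which is not the Fos and Jun core. Mmp10, picked for its 0 counts, and Mmp13 both had a TGANTCA match (first base 63 and 35 bases before the start) followed by TATAAA. Mmp12 held TGANTCA only before its internal start, 44 bases away, and Mmp27 held neither motif. A match describes letters and is not a shown site, and the part of either motif in the expression of these genes was not tested.

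Mmp2, gelatinase A, was up-regulated in all 4 comparisons. It cuts denatured collagen and basement membrane collagen. WT females had 2.58, 0.765, 1.68 and 2.76 CPM on ND and 8.32, 12, 13.4 and 13.6 on CDAHFD (log2 change 2.49, SE 0.40, adjusted p = 0.000102). Cyp2b-null females had 0.605, 1.39, 4.61 and 4.52 CPM on ND and 7.04, 15.9, 16.1 and 13.2 on CDAHFD (log2 change 2.25, SE 0.38, adjusted p = 0.000147). The lowest library of CDAHFD-fed females was above the highest of ND-fed ones in both genotypes. WT males had 1.65, 1.32, 2.2 and 1.53 CPM on ND and 12.3, 5.83, 13.7 and 14.7 on CDAHFD (log2 change 2.78, SE 0.36, adjusted p = 4.05e-06). Cyp2b-null males had 2.45, 2.28, 3.58 and 1.77 CPM on ND and 9.5, 10.3, 20.9 and 8.82 on CDAHFD (log2 change 2.32, SE 0.34, adjusted p = 1.37e-05), again without overlap.

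Mmp15 and Mmp24, both membrane-type proteases, were up-regulated in all 4 diet comparisons. Mmp24 changed by 1.17 and 1.83 on the log2 scale in females (WT and Cyp2b-null) and by 1.03 and 1.08 in males, and the diets overlapped only in WT females. Mmp14, the membrane-type protease that activates pro-Mmp2 together with Timp2, was up-regulated in WT females (log2 change 0.59, SE 0.16, adjusted p = 0.00781), Cyp2b-null females (log2 change 1.03, SE 0.16, adjusted p = 4.36e-05) and Cyp2b-null males (log2 change 1.19, SE 0.25, adjusted p = 0.000667), but the difference in WT males was 0.10 (SE 0.24, adjusted p = 0.783). Mmp23, another membrane-anchored member, was up-regulated in Cyp2b-null females (log2 change 1.91), WT males (2.85) and Cyp2b-null males (3.34), and the value in WT females was 1.28 (SE 0.51, adjusted p = 0.0762).

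Mmp19 was the only member called lower, and it is the Mmp with the highest level per kb on ND. Its change was -0.40 (SE 0.13, adjusted p = 0.0266) in WT females, -0.38 (SE 0.13, adjusted p = 0.032) in WT males and -0.42 (SE 0.13, adjusted p = 0.0149) in Cyp2b-null males. In Cyp2b-null females it was -0.22 (SE 0.13, adjusted p = 0.215). None of these calls held when libraries were scaled by size alone, where the change in WT males turned to 0.00 (adjusted p = 0.987), under a scaling that moved the median of all genes upward. The call in WT females was also lost without the low-count filter and without CDAHFD-fed WT female replicate 1 or ND-fed WT female replicate 1 or 3 (up to 0.105). In WT males it was lost when only the 2 groups entered the fit and without CDAHFD-fed WT male replicate 3 or 4 or ND-fed WT male replicate 1 (up to 0.107), and in Cyp2b-null males without CDAHFD-fed Cyp2b-null male replicate 1 or 3 (up to 0.0666).

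Timp1 rose from near 0 in every comparison. Timp1 (chrX:20870166-20874737) encodes a secreted inhibitor of most Mmps. It was at 5.47, 5.43, 4.78 and 7.19 CPM in CDAHFD-fed WT females and at 5.79, 6.98, 13.2 and 5.31 CPM in CDAHFD-fed Cyp2b-null females, while the ND-fed groups held 3 counts and 1 count in all, all of the former in replicate 4. The ratio of CDAHFD to ND was 31.9-fold (95% counting interval 10.7 to 157) in WT females and 129.6-fold (95% counting interval 23 to 5145) in Cyp2b-null females. The groups stood apart in both genotypes. CDAHFD-fed WT males had 4.17, 3.96, 6.2 and 3.73 CPM against 3 counts in all on ND, a ratio of 36.9-fold (95% counting interval 12.3 to 181). Cyp2b-null males had 0.333, 0, 0.211 and 0 CPM on ND and 4.67, 7.81, 7.58 and 4.1 on CDAHFD (log2 change 5.01, SE 0.55, adjusted p = 4.62e-07). Every CDAHFD-fed library was above 3 CPM and every ND-fed library under 1.
The 250 bases before the RefSeq start of Timp1 (chrX:20869916-20870165, GRCm38.p6, forward strand, 5′ to 3′) are shown as the counterpart of the Mmp12 and Mmp13 windows, and held neither motif, so no letter is in capitals.
Timp1: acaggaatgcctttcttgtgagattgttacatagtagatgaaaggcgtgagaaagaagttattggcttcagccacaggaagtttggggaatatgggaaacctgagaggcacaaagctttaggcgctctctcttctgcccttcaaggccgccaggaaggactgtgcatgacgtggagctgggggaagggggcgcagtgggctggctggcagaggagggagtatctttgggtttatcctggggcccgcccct

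Timp2, which besides inhibiting Mmps takes part in pro-Mmp2 activation, started from a higher level and was raised in all 4 comparisons. WT females had 12.9, 13, 12.8 and 14.6 CPM on ND and 29.3, 32.3, 40.7 and 30.3 on CDAHFD (log2 change 1.33, SE 0.19, adjusted p = 2.07e-05). Cyp2b-null females had 14.2, 11.9, 12.3 and 21.1 CPM on ND and 27.2, 41.6, 36.4 and 34.9 on CDAHFD (log2 change 1.24, SE 0.18, adjusted p = 3.29e-05). WT males had 11.2, 8.11, 11.1 and 8.53 CPM on ND and 28.8, 25.4, 50.4 and 45.4 on CDAHFD (log2 change 1.95, SE 0.23, adjusted p = 1.20e-06). The 2 diets did not overlap in any of these groups, nor in Cyp2b-null males. Those had 6.56, 7.52, 9.27 and 11.3 CPM on ND and 37.8, 39, 59.7 and 44.3 on CDAHFD (log2 change 2.42, SE 0.23, adjusted p = 7.17e-08).

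Timp3, which is held in the matrix and also inhibits Adam and Adamts proteases, was called in 1 of the 4 diet comparisons, that of Cyp2b-null males. Those had 16, 14.6, 19 and 14 CPM on ND and 28.8, 28.2, 42.6 and 33.4 on CDAHFD (log2 change 1.07, SE 0.18, adjusted p = 6.41e-05). In WT males the values were 21, 15.9, 20.4 and 21.7 on ND and 18.4, 22.7, 30.5 and 29.6 on CDAHFD (log2 change 0.37, SE 0.18, adjusted p = 0.114). The diets overlapped there and stood apart in Cyp2b-null males. In WT females they were 25.4, 19.5, 23.2 and 18.6 on ND and 22.1, 22.9, 24.3 and 23 on CDAHFD (log2 change 0.11, SE 0.19, adjusted p = 0.72). Cyp2b-null females had 32.4, 27.4, 33 and 24.8 CPM on ND and 15.1, 30.0, 16.8 and 22.6 on CDAHFD (log2 change -0.42, SE 0.18, adjusted p = 0.0864), the only Timp3 change with a negative sign. Timp4 had at most 2 counts in any library.

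**Figure D3:**
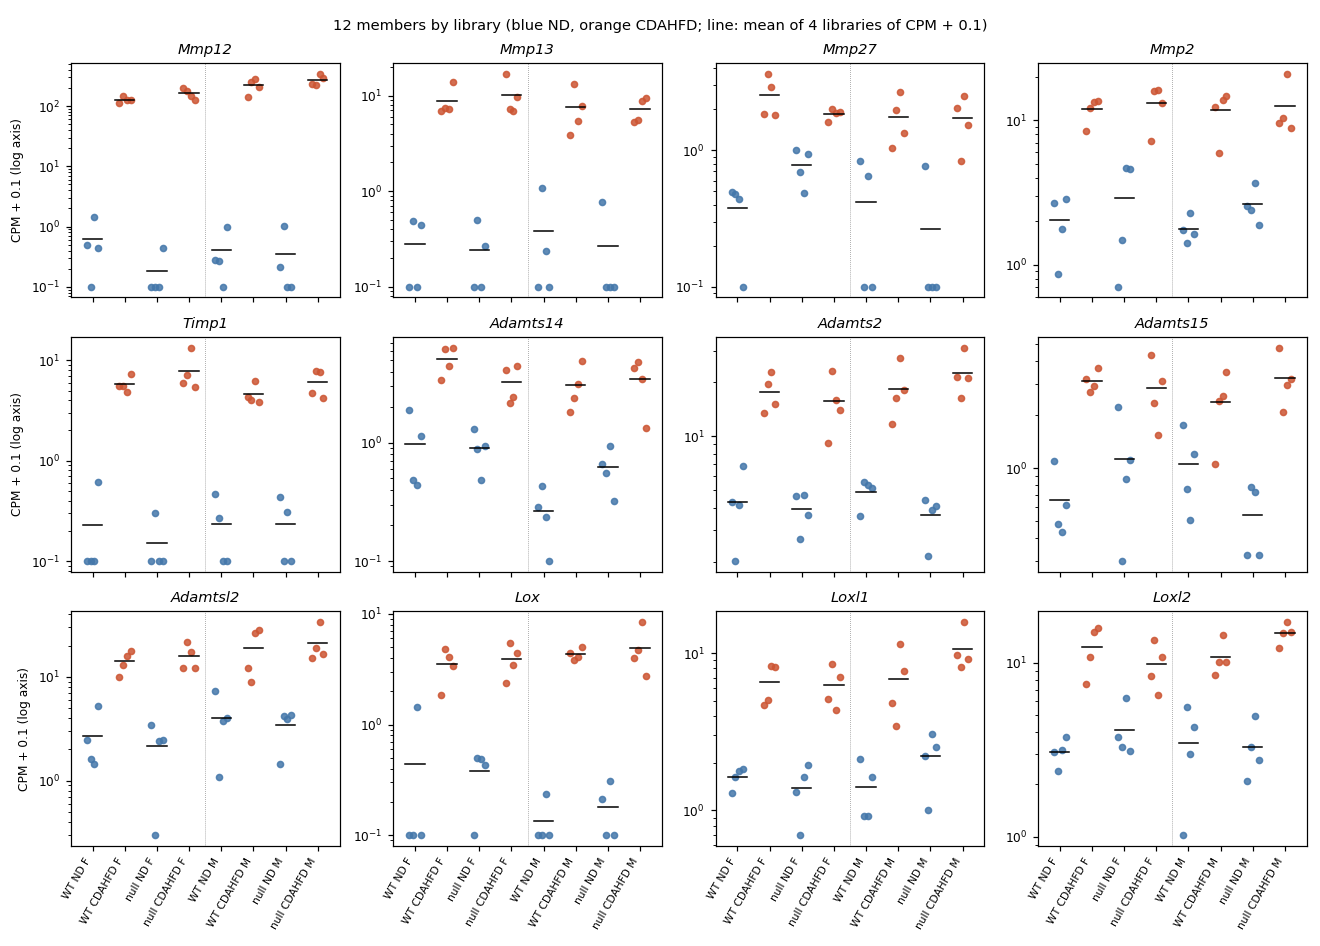
CPM plus 0.1 on a log axis for the 12 members with the largest mean diet change among those called in all 4 comparisons, by group (F females, M males, null Cyp2b-null); each point is 1 library (blue ND, orange CDAHFD) and each line the mean of 4. Among these 12, the orange points lie above the blue ones, with overlap only for Adamts15 in Cyp2b-null females and WT males.

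The procollagen N-proteinases Adamts2 and Adamts14, which trim the amino end of fibrillar procollagens, were both up-regulated in all 4 comparisons. Adamts2 was at 4.17, 1.91, 4.04 and 6.72 CPM in ND-fed and 13.3, 19.4, 22.7 and 15 in CDAHFD-fed WT females (log2 change 1.99, SE 0.31, adjusted p = 5.73e-05). Cyp2b-null females had 4.54, 2.58, 4.61 and 3.51 CPM on ND and 9.06, 23.2, 15.9 and 14 on CDAHFD (log2 change 2.11, SE 0.32, adjusted p = 3.90e-05). WT males had 3.49, 5.46, 5.21 and 5.03 CPM on ND and 11.6, 16.2, 27.1 and 18.1 on CDAHFD (log2 change 1.94, SE 0.27, adjusted p = 1.03e-05). No group overlapped with its counterpart, here or in the remaining pair. Cyp2b-null males had 4.34, 2.05, 3.79 and 3.99 CPM on ND and 21.4, 16.2, 31 and 21.1 on CDAHFD (log2 change 2.63, SE 0.28, adjusted p = 2.44e-07). Adamts14 was rarer: WT females had 1.79, 0.383, 0.337 and 1.03 CPM on ND and 3.28, 6.14, 4.38 and 6.25 on CDAHFD (log2 change 2.32, SE 0.42, adjusted p = 0.000339). Cyp2b-null females had 1.21, 0.793, 0.384 and 0.837 CPM on ND and 4.02, 2.06, 2.32 and 4.34 on CDAHFD (log2 change 1.94, SE 0.45, adjusted p = 0.00273). These groups stood apart as well. In WT males Adamts14 was at 0.184, 0.331, 0.137 and 0 CPM on ND, with 4 counts in all, and at 1.71, 2.29, 3.04 and 4.79 on CDAHFD (log2 change 3.98, SE 0.62, adjusted p = 4.39e-05). In Cyp2b-null males it was at 0.556, 0.456, 0.843 and 0.222 on ND and 4.19, 4.69, 3.33 and 1.23 on CDAHFD (log2 change 2.66, SE 0.51, adjusted p = 0.000272).

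Calls among the proteoglycan-cleaving Adamts proteases differed more between comparisons. Adamts15 was called in all 4 comparisons. WT females had 0.994, 0.383, 0.337 and 0.517 CPM on ND and 3.06, 2.6, 2.79 and 3.59 on CDAHFD (log2 change 2.31, SE 0.52, adjusted p = 0.00218). Cyp2b-null males had 0.222, 0.683, 0.632 and 0.222 CPM on ND and 4.67, 1.98, 2.83 and 3.08 on CDAHFD (log2 change 2.87, SE 0.54, adjusted p = 0.000238). These 2 comparisons showed no overlap between diets. Cyp2b-null females had 2.12, 0.198, 0.768 and 1.0 CPM on ND and 4.28, 2.22, 1.43 and 3.02 on CDAHFD (log2 change 1.48, SE 0.48, adjusted p = 0.0224), and WT males had 1.65, 0.662, 0.412 and 1.09 on ND and 0.948, 2.29, 2.46 and 3.37 on CDAHFD (log2 change 1.3, SE 0.48, adjusted p = 0.0442). There the groups overlapped. The call in Cyp2b-null females was lost when only the 2 groups entered the fit (0.0561) and without CDAHFD-fed Cyp2b-null female replicate 1 or 4 or ND-fed Cyp2b-null female replicate 2, 3 or 4 (up to 0.0982). The call in WT males was lost without the low-count filter, with the replicate block and without the 2 libraries the study's heat maps leave out (up to 0.0650), and without any 1 of 9 libraries, namely replicates 2, 3 and 4 of both WT male groups, ND-fed Cyp2b-null male replicate 3 and CDAHFD-fed Cyp2b-null male replicates 3 and 4 (up to 0.144).

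Adamts5, an aggrecanase, was up-regulated in Cyp2b-null females (log2 change 1.38), WT males (1.01) and Cyp2b-null males (1.73), and the value in WT females was 0.55 (SE 0.42, adjusted p = 0.381). The call in WT males was lost without CDAHFD-fed WT male replicate 3 or 4 or ND-fed WT male replicate 1 or 3 (up to 0.0841). Adamts9 was up-regulated in WT males (1.28) and Cyp2b-null males (2.08), while females had 1.12 and 0.28 (adjusted p = 0.0599 and 0.64). Adamts4, another aggrecanase, and Adamts12 were tested in males only. WT females held 4, 0, 0 and 1 counts of Adamts4 on ND and 2, 5, 11 and 8 on CDAHFD. Cyp2b-null females held 3, 0, 0 and 2 and then 3, 11, 3 and 6. For Adamts12 the counts were 2, 0, 0 and 4 and then 3, 4, 3 and 6 in WT females. They were 0, 2, 2 and 3 and then 3, 9, 0 and 12 in Cyp2b-null females. The diets overlapped in females for both genes. In the fits of males, Adamts4 rose by 2.22 in WT and 2.6 in Cyp2b-null mice on the log2 scale. Adamts12 went from 3 counts in all on ND to 41 in WT males, a ratio of 13.1-fold (95% counting interval 4.19 to 66.4), and from 3 to 51 in Cyp2b-null males, a ratio of 11.8-fold (95% counting interval 3.81 to 59).

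Adamts10, which binds fibrillin, changed by 1.72 in WT females, 1.17 in Cyp2b-null females, 1.67 in WT males and 1.49 in Cyp2b-null males, with no overlap between diets. Adamts1 and Adamts7 were the most abundant members of this class per kb in each ND group, and both were called in 1 of the 4 comparisons, that of Cyp2b-null males (log2 change 0.84 and 0.60, adjusted p = 0.014 and 0.0433). The diets overlapped in that comparison for both genes, with Adamts1 at 2.95 to 10.2 CPM on ND and 9.02 to 16.2 on CDAHFD. Without a call, Adamts1 stood apart between diets in WT females (9.54 to 12.2 and 13.0 to 19.3 CPM). It also stood apart in WT males (8.53 to 11.1 and 12.8 to 14.8 CPM). Adamts7 overlapped in every comparison. The Adamts1 call was lost without CDAHFD-fed Cyp2b-null male replicate 3 (0.0644). The Adamts7 call was lost without ND-fed Cyp2b-null male replicate 2, 3 or 4 or CDAHFD-fed Cyp2b-null male replicate 1 or 3 (up to 0.167), and without ND-fed Cyp2b-null male replicate 1 its change was 0.90. Adamts13, the von Willebrand factor-cleaving protease that stellate cells make in the liver, was called in no diet comparison, with log2 changes from -0.73 in Cyp2b-null males to 0.42 in WT females. Adamts6 was not called either, with log2 changes from -0.65 to 0.37 over the 4 comparisons.

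Adamtsl proteins resemble Adamts but lack the protease domain. Adamtsl2, which binds fibrillin and latent forms of transforming growth factor beta, was at 2.39, 1.53, 1.35 and 5.17 CPM in ND-fed and 9.85, 13, 15.9 and 17.7 in CDAHFD-fed WT females (log2 change 2.31, SE 0.39, adjusted p = 0.000159). Cyp2b-null females had 3.33, 0.198, 2.3 and 2.34 CPM on ND and 12.1, 21.6, 17.5 and 12.2 on CDAHFD (log2 change 3.06, SE 0.42, adjusted p = 1.44e-05). WT males had 7.17, 0.993, 3.7 and 3.94 CPM on ND and 12.1, 8.74, 26.4 and 28.4 on CDAHFD (log2 change 2.3, SE 0.44, adjusted p = 0.000388). Replicates 3 and 4 of the CDAHFD-fed WT males lay far above replicates 1 and 2, though all 4 were above the ND group. Cyp2b-null males had 1.33, 4.1, 3.79 and 4.21 CPM on ND and 15, 18.7, 33.7 and 16.6 on CDAHFD (log2 change 2.76, SE 0.46, adjusted p = 6.60e-05). Adamtsl1 was up-regulated in Cyp2b-null females (log2 change 1.27, SE 0.48, adjusted p = 0.049) and Cyp2b-null males (log2 change 1.98, SE 0.59, adjusted p = 0.0111), with log2 changes of 0.20 and -0.10 in WT females and males. Both of its calls were unstable: that in males was lost without CDAHFD-fed Cyp2b-null male replicate 3 (0.0766), that in females under 4 alternatives (up to 0.0687) and in 11 of 16 fits without 1 library (up to 0.165). Those 11 were replicates 2, 3 and 4 of both WT female groups, replicates 1, 2 and 3 of the ND-fed Cyp2b-null females and replicates 1 and 2 of the CDAHFD-fed Cyp2b-null females. Whether the diet effect on Adamtsl1 differed between the genotypes was tested and did not pass in either sex, with a log2 difference of 1.07 (SE 0.66, adjusted p = 0.762) in females and 2.08 (SE 0.81, adjusted p = 0.699) in males.

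Lox, Loxl1, Loxl2 and Loxl3, 4 of the 5 lysyl oxidase genes, were up-regulated in all 4 comparisons. Lox itself was nearly silent on ND, with 0, 0, 1.35 and 0 CPM in WT and 0, 0.397, 0.384 and 0.335 in Cyp2b-null females. On CDAHFD it was at 1.75, 4.72, 3.99 and 3.28 CPM in WT females (log2 change 3.67, SE 0.72, adjusted p = 0.000644) and 2.26, 5.39, 3.39 and 4.34 in Cyp2b-null females (log2 change 3.66, SE 0.66, adjusted p = 0.00030). All 4 ND counts of WT females lay in replicate 3, and without it the fitted change was 7.11 and the level on CDAHFD at least 15.3-fold higher, with 3 counts over the other ND libraries as the floor. Leaving out that library could only raise the change. No library of CDAHFD-fed females fell to the level of an ND-fed one. In WT males 1 count in all on ND stood against 103 on CDAHFD (4.36, 3.75, 3.97 and 4.97 CPM), a ratio of 99.1-fold (95% counting interval 17.4 to 3951). In Cyp2b-null males 2 counts stood against 181 (3.86, 4.58, 8.33 and 2.67 CPM), a ratio of 62.7-fold (95% counting interval 17.1 to 521). All 16 CDAHFD-fed libraries were above every ND-fed library.

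Loxl1, which crosslinks elastin, was at 1.19, 1.53, 1.68 and 1.72 CPM in ND-fed and 4.6, 4.96, 8.17 and 8.12 in CDAHFD-fed WT females (log2 change 2.11, SE 0.35, adjusted p = 0.000129). Cyp2b-null females had 1.21, 0.595, 1.54 and 1.84 CPM on ND and 5.03, 8.41, 4.28 and 7.0 on CDAHFD (log2 change 2.28, SE 0.36, adjusted p = 6.09e-05). WT males had 2.02, 0.827, 0.823 and 1.53 CPM on ND and 4.74, 3.33, 11.3 and 7.63 on CDAHFD (log2 change 2.45, SE 0.42, adjusted p = 0.000126). The spread on CDAHFD was wide, with replicate 3 of each male group the highest. Cyp2b-null males had 2.11, 0.911, 2.95 and 2.44 CPM on ND and 9.66, 8.02, 15.7 and 9.02 on CDAHFD (log2 change 2.33, SE 0.38, adjusted p = 5.49e-05).

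Loxl2, which crosslinks basement membrane and fibrillar collagen, was at 2.98, 2.3, 3.03 and 3.62 CPM in ND-fed and 7.44, 10.6, 14.9 and 15.8 in CDAHFD-fed WT females (log2 change 2.02, SE 0.31, adjusted p = 5.18e-05). Cyp2b-null females had 3.63, 3.17, 6.14 and 3.01 CPM on ND and 8.3, 13.5, 6.42 and 10.6 on CDAHFD (log2 change 1.4, SE 0.30, adjusted p = 0.00143). WT males had 0.919, 5.46, 2.88 and 4.16 on ND and 8.34, 9.99, 14.3 and 9.94 on CDAHFD (log2 change 1.68, SE 0.33, adjusted p = 0.000429). Diets did not overlap for Loxl1 or Loxl2 in any comparison. Cyp2b-null males had 2.0, 3.19, 4.85 and 2.66 CPM on ND and 12.1, 14.8, 17 and 15 on CDAHFD (log2 change 2.26, SE 0.33, adjusted p = 1.38e-05). The log2 change of Loxl3 was 0.77 and 0.89 in WT and Cyp2b-null females and 0.72 and 0.75 in males. The calls in WT females, WT males and Cyp2b-null males, 3 of the 4, were lost without the low-count filter (adjusted p up to 0.0920), that in WT males also when only the 2 groups entered the fit. They were also lost without CDAHFD-fed WT female replicate 4 (0.0592), ND-fed Cyp2b-null male replicate 3 (0.0531), or CDAHFD-fed WT male replicate 3 or ND-fed WT male replicate 2 or 4 (up to 0.123), each in the comparison of its own group. Loxl4 was called in none, with -0.63 and -0.31 in females and 0.49 and 0.57 in males.

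Summed over a class per kb of exon, which allows levels of different genes to be added, all 4 classes were higher on CDAHFD in each pair of groups. The Mmp sum was 49.6 ± 4.19 CPM per kb (SD, n = 4) in ND-fed and 88.6 ± 5.41 in CDAHFD-fed WT females. In Cyp2b-null females it was 43.8 ± 3.27 and 95.1 ± 5.67. WT males had 57.9 ± 9.52 and 105 ± 13.8, and Cyp2b-null males 47.8 ± 3.72 and 118 ± 8.97. The groups fed CDAHFD stood above those fed ND throughout. On ND more than 40% of this sum was Mmp19 in each group, and on CDAHFD Mmp12 alone made up 19.8% ± 1.98 in WT females, 23.7% ± 4.42 in Cyp2b-null females, 29% ± 4.96 in WT males and 31.8% ± 4.66 in Cyp2b-null males. The Mmp12 shares rest on an exon length of 7.237 kb. The Timp sum went from 6.23 ± 0.39 to 17.8 ± 1.15 CPM per kb in WT females and from 7.48 ± 0.762 to 20.4 ± 4.84 in Cyp2b-null females. In males it went from 5.07 ± 0.706 to 17.8 ± 4.68 (WT) and from 4.33 ± 0.555 to 22.5 ± 4.68 (Cyp2b-null). Timp1 made up at most 3.54% of the Timp sum in any ND group and between 28.5% and 43.2% on CDAHFD. These sums again did not overlap between diets. The lysyl oxidase sum went from 3.29 ± 0.708 to 7.5 ± 1.97 CPM per kb in WT females and from 2.75 ± 0.38 to 9.35 ± 2.0 in Cyp2b-null males. The Adamts and Adamtsl sum went from 8.52 ± 1.23 to 14.8 ± 1.26 and from 5.74 ± 0.85 to 14.9 ± 3.17 in the same groups.

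The ratio of the Mmp sum to the Timp sum was lower on CDAHFD when levels were taken per kb: 7.96 ± 0.372 and 4.98 ± 0.18 in WT females on ND and CDAHFD, 5.89 ± 0.677 and 4.83 ± 0.991 in Cyp2b-null females, 11.7 ± 3.0 and 6.1 ± 1.45 in WT males and 11.2 ± 1.95 and 5.36 ± 0.781 in Cyp2b-null males. Only in Cyp2b-null females did the diets overlap. Without division by exon length the mean ratio was higher on CDAHFD in females, with overlap in WT females (6.15 ± 0.383 and 7.3 ± 0.527 in WT, 4.34 ± 0.23 and 7.99 ± 1.62 in Cyp2b-null) and lower with overlap in males (9.41 ± 2.53 and 8.78 ± 2.26 in WT, 8.9 ± 1.5 and 7.9 ± 0.984 in Cyp2b-null). Timp1 has 0.888 kb of exon and Timp3 8.144 kb, so the direction of this ratio in females depends on the scale. Mmp12 was divided by 7.237 kb, the union of its annotated exons, while the other Mmp genes of its cluster have 1.068 to 3.287 kb. A shorter length would raise its part of the Mmp sum and the ratio on CDAHFD, and no other length was tried. No test was made of these sums.

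**Figure D4:**
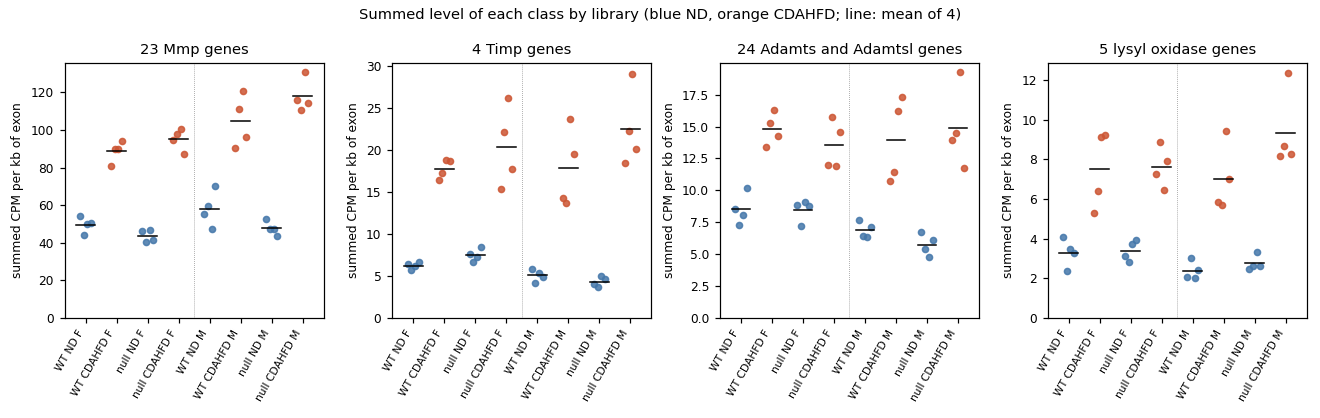
Summed CPM per kb of exon for the Mmp, Timp, Adamts with Adamtsl and lysyl oxidase genes, by group (F females, M males, null Cyp2b-null); each point is 1 library (blue ND, orange CDAHFD) and each line the mean of 4. All orange points lie above the blue points of the same sex and genotype.

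RNA of other cells moved with these genes. Beside the marker counts below, 13.9% to 20.3% of all tested genes were called higher and 10.2% to 17.1% lower in the 4 diet comparisons. In bulk liver, fewer cells of a type and less RNA per cell cannot be told apart. Of 8 macrophage markers, 7 were tested and 6 were higher on CDAHFD in each of the 4 diet comparisons. Their summed level in WT females was between 276 and 418 CPM on ND and between 821 and 1132 on CDAHFD. It was between 261 and 395 and between 858 and 1344 CPM in Cyp2b-null females, between 124 and 229 and between 750.0 and 1617 in WT males, and between 126 and 168 and between 1079 and 2005 in Cyp2b-null males. Trem2 was at 0 in all 32 libraries, and the groups did not overlap. Of 8 stellate cell or fibroblast markers 4, 5, 5 and 7 were higher in WT females, Cyp2b-null females, WT males and Cyp2b-null males, with no marker at 0. Their sum was between 279 and 360.3 CPM on ND and between 414 and 543 on CDAHFD in WT females, between 272 and 340.3 and between 428 and 545 in Cyp2b-null females, between 154 and 207 and between 313 and 473 in WT males and between 141 and 191 and between 386 and 519 in Cyp2b-null males. Of 7 neutrophil markers, 3 were tested and all 3 were higher in each comparison, with Ly6g at 0 throughout. Their sum was between 1.72 and 4.97 CPM on ND and between 12.5 and 18.9 on CDAHFD in WT females, and between 0.886 and 2.56 and between 11.7 and 20.2 in Cyp2b-null males. Of 6 hepatocyte markers 5, 5, 6 and 4 were lower and 0 were at 0 in any group. Their sum on ND and CDAHFD was between 128219 and 189687 and between 73844 and 100605 CPM in WT females. It was between 132646 and 166586 and between 71868 and 114199 CPM in Cyp2b-null females. In WT males it was between 113461 and 130315 and between 56620 and 101814 CPM. Cyp2b-null males had between 105987 and 120176 and between 53242.5 and 82398 CPM, and the diets overlapped in no pair. The part of these cells in the changes of Mmp12, Timp1, Lox and the other members was not tested. Of 4 mesothelium and 6 exocrine pancreas markers 0 were called higher in any diet comparison, and at most 1 of either list lower. Of 5 T cell markers at most 1 was tested and 0 were called. Cidec, the 1 adipocyte marker tested of 5, was higher in each comparison, while Adipoq, Plin1, Lep and Adig were at 0 in every CDAHFD group and 2 of these 4 were detected in each ND group. Of 4 tested cholangiocyte markers 1, 2, 1 and 1 were higher and 0 lower. Of 6 endothelial markers 0, 0, 1 and 3 were higher and 2, 3, 1 and 0 lower.

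None of these genes was called between Cyp2b-null and WT mice on either diet. On ND, 0 of 30 members were called between Cyp2b-null and WT females (0.0756% of all genes were) and 0 of 33 in males (0.0371%). On CDAHFD, 0 of 30 were called in females (0.0227%) and 0 of 33 in males (0.0297%). A diet effect that differed by genotype was called for 0 of 30 members in females (0% of all genes) and 0 of 33 in males (0.00743%). DESeq2 also called 0 in each of these 6 comparisons. At an unadjusted p under 0.05 there were 2, 2 and 2 members in females (ND, CDAHFD and interaction) and 2, 1 and 3 in males, named here after their values were seen. These are 6.67% of the members in each female comparison, beside 5.75%, 5.83% and 6.28% of all genes, and 6.06%, 3.03% and 9.09% in males beside 8.26%, 3.62% and 6.07%. In females they were Mmp19 (-0.30) and Timp3 (0.42) on ND, Adamts10 (-0.52) and Adamts5 (0.90) on CDAHFD, and Mmp27 (-1.86) and Mmp12 in the interaction, where the 2 counts of Mmp12 in ND-fed Cyp2b-null females leave its value without meaning. In males they were Adamtsl1 (-1.45) and Mmp14 (-0.72) on ND, Timp3 (0.39) on CDAHFD, and Adamtsl1 (2.08), Mmp14 (1.08) and Timp3 (0.70) in the interaction, all as log2 values of Cyp2b-null minus WT. Log2 differences of the members on CDAHFD ran from -0.65 to 0.90 in females and from -0.53 to 0.63 in males. Mmp12 differed by 0.36 ± 0.18 in CDAHFD-fed females and 0.30 ± 0.22 in CDAHFD-fed males (log2, SE), higher in Cyp2b-null mice, with adjusted p = 0.826 and 1.0. Timp1 differed by 0.43 ± 0.32 and 0.43 ± 0.34 and Lox by 0.20 ± 0.43 and 0.24 ± 0.34 in the same way, with adjusted p = 0.832, 1.0, 0.93 and 1.0.

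Mmp14 was the only member called between the genotypes under any alternative run. In males it was at 88.4, 115, 57.4 and 168 CPM in ND-fed WT and 88.2, 59.5, 60.5 and 49 in ND-fed Cyp2b-null livers (log2 difference -0.72, SE 0.25, adjusted p = 0.41). On CDAHFD the values were 96.7, 123, 141 and 96.9 in WT and 196, 143, 134 and 115 in Cyp2b-null males. The 4 libraries of ND-fed WT males spread widely and overlapped with all 3 other male groups. The interaction was 1.08 (SE 0.35, adjusted p = 0.654). With no filter on low counts the same 2 comparisons passed (-0.72 ± 0.14, adjusted p = 0.000334, and 1.08 ± 0.20, adjusted p = 6.11e-05). In females the Mmp14 values were 62.6, 62.4, 58.6 and 84.5 in ND-fed WT, 98.7, 88.5, 99.1 and 111 in CDAHFD-fed WT, 58.1, 51.8, 53.4 and 57.1 in ND-fed Cyp2b-null and 84.5, 98.7, 149 and 112 in CDAHFD-fed Cyp2b-null mice, with an interaction of 0.45 (SE 0.22, adjusted p = 0.76).

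The sexes were compared in 1 fit of all 8 groups, in which 34 members were tested. The diet effect of Cyp2b-null mice differed between the sexes for 2 of them, Timp3 and Timp2 (3.4% of all genes were called). Males minus females, the difference in log2 change was 1.52 (SE 0.26, adjusted p = 0.000722) for Timp3 and 1.2 (SE 0.30, adjusted p = 0.022) for Timp2. For Timp3 the males rose from 15.9 ± 2.23 to 33.3 ± 6.63 CPM (SD, n = 4) while the females had 29.4 ± 3.98 and 21.1 ± 6.73. For Timp2 the change was from 8.66 ± 2.09 to 45.2 ± 10.1 CPM in males and from 14.9 ± 4.26 to 35 ± 5.96 in females. The Timp3 call held in all 32 fits without 1 library. The Timp2 call was lost without CDAHFD-fed Cyp2b-null male replicate 3, ND-fed Cyp2b-null male replicate 1 or 2 or ND-fed Cyp2b-null female replicate 4 (up to 0.0877). In WT mice the same differences were 0.28 (SE 0.26, adjusted p = 0.811) for Timp3 and 0.64 (SE 0.30, adjusted p = 0.459) for Timp2. The difference for Adamts9 was 1.82 (SE 0.56, adjusted p = 0.0604) and passed with DESeq2 (0.0277), without the low-count filter (0.022) and without CDAHFD-fed WT female replicate 1, ND-fed WT male replicate 3, ND-fed Cyp2b-null female replicate 3, CDAHFD-fed Cyp2b-null female replicate 2 or ND-fed Cyp2b-null male replicate 2 (0.0428 to 0.0478). The summed macrophage markers were lower on ND and higher on CDAHFD in the males, with means of 149 and 1436 CPM against 343 and 1136 in the females, and 4 of 7 tested had a diet effect called larger in males. For 3 of 6 endothelial markers the diet effect was also called larger in males and for 0 smaller (median difference 1.08 on the log2 scale). Their sum was between 145 and 189 CPM on ND and between 136 and 260.4 on CDAHFD in Cyp2b-null males, and between 215 and 289 on ND and between 159.7 and 183 on CDAHFD in Cyp2b-null females, with 0 of the 6 at 0. For stellate cell or fibroblast markers 0 of 8 were called. The part of these cells in the Timp2 and Timp3 differences was not tested.

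In WT mice the diet effect differed between the sexes for Mmp15 alone (0.97% of all genes were called). Mmp15 was at 40.9, 34.8, 25.3 and 36.9 CPM in ND-fed and 99.4, 105, 114 and 92.8 in CDAHFD-fed WT females (log2 change 1.59, SE 0.15, adjusted p = 1.32e-07). WT males had 62.2, 75.9, 60.1 and 83.1 CPM on ND and 114, 132, 137 and 106 on CDAHFD (log2 change 0.80, SE 0.13, adjusted p = 5.21e-05). Males started higher and rose less, with a difference in log2 change of -0.76 (SE 0.19, adjusted p = 0.0389). Cyp2b-null females had 47.2, 44.2, 36.9 and 39.7 CPM on ND and 86.5, 116, 102 and 99.5 on CDAHFD (log2 change 1.29, SE 0.14, adjusted p = 1.35e-06), and Cyp2b-null males 58.2, 62.6, 66.8 and 51.6 on ND and 130.4, 128, 147 and 118 on CDAHFD (log2 change 1.14, SE 0.13, adjusted p = 6.14e-07). The difference between the sexes was -0.13 (SE 0.19, adjusted p = 0.747) there. The call in WT mice was lost with scaling by library size alone (0.136) and without any 1 of 10 libraries, namely CDAHFD-fed WT female replicates 1, 2 and 3, ND-fed WT female replicates 2, 3 and 4 and replicates 2 and 4 of both WT male groups (up to 0.109). Of 34 members, 0 had a genotype effect on CDAHFD that differed between males and females (0.00713% of all genes) with edgeR and with DESeq2, and 1 had an unadjusted p under 0.05, Adamts10 (1.05 on the log2 scale, named after its value was seen), which is 2.94% of the members beside 3.13% of all genes.

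On ND alone, 4 of 34 members differed between WT males and WT females, where 17.8% of all genes were called. Of the markers in the same comparison, 5 of 7 tested for macrophages (median log2 difference -0.93), 2 of 8 for stellate cells or fibroblasts and 1 of 6 for endothelium were called lower in males and 0 higher, as were 7 of 22 matrix substrates. The summed macrophage markers were between 124 and 229 CPM in these males and between 276 and 418 in these females, and the part of these cells in the differences was not tested. Mmp15 was higher in males (log2 difference 1.01, SE 0.14, adjusted p = 2.43e-06), without overlap. Adamtsl4, which binds fibrillin microfibrils, was lower in males, at 1.65, 2.32, 1.51 and 2.19 CPM against 5.17, 6.89, 4.38 and 4.65 in females (log2 difference -1.44, SE 0.34, adjusted p = 0.00338), a call lost only with the replicate block (0.0571). On CDAHFD the sexes overlapped, with 2.09, 2.08, 4.44 and 5.5 CPM in WT males and 3.72, 2.36, 3.19 and 2.97 in WT females. Cyp2b-null mice had 2.45, 1.37, 1.48 and 0.886 CPM in males and 3.33, 2.38, 4.99 and 3.35 in females on ND, and 3.54, 4.06, 3.25 and 2.05 in males and 3.77, 3.49, 1.96 and 4.83 in females on CDAHFD. In WT females Adamtsl4 was lower on CDAHFD without overlap between diets, but this was not called (log2 change -0.73). The diets overlapped in the other groups, Cyp2b-null males included. The only diet call for Adamtsl4 was in Cyp2b-null males (log2 change 1.0, SE 0.38, adjusted p = 0.0451); it was lost without the low-count filter and with the replicate block (up to 0.0695) and without any 1 of 8 libraries (up to 0.127), namely replicates 1, 2 and 3 of the CDAHFD-fed and 2, 3 and 4 of the ND-fed Cyp2b-null males, CDAHFD-fed WT male replicate 3 and ND-fed WT male replicate 1. Adamts14 was lower in males (log2 difference -2.41, SE 0.73, adjusted p = 0.0197), without overlap but on 4 counts in all in males, a call lost with the replicate block (0.0579) and without ND-fed WT female replicate 1 or ND-fed WT male replicate 4 (up to 0.132). Mmp14 was higher in males (log2 difference 0.67, SE 0.22, adjusted p = 0.0342), with overlap, and this call was lost with scaling by library size alone, with the replicate block (up to 0.0754) and without ND-fed WT female replicate 1, 2 or 3 or ND-fed WT male replicate 2 or 4 (up to 0.261). Without ND-fed WT male replicate 4 the difference was 0.37. Without 1 library, further calls appeared for Adamts5 on ND (1.17, adjusted p = 0.0391, without ND-fed WT male replicate 3), for Loxl4 on ND (-1.63, 0.0425, without ND-fed WT male replicate 2) and for the diet effect on Adamtsl4 between the sexes in WT mice (1.85, 0.031, without CDAHFD-fed WT male replicate 1). None of these was called in the fit of all libraries, where the last difference was 1.67 (adjusted p = 0.0870).

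**Figure D5:**
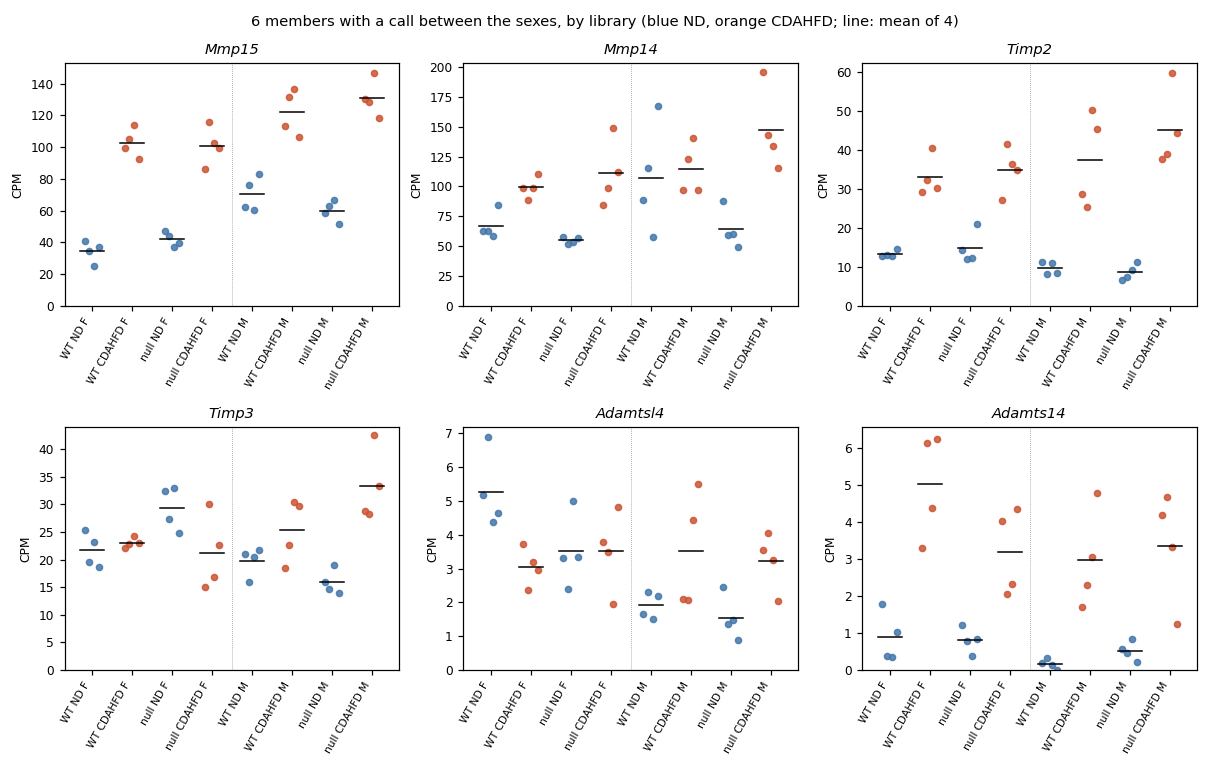
CPM of the 6 members called in a comparison between the sexes, by group (F females, M males, null Cyp2b-null), from 0 on a linear axis; each point is 1 library (blue ND, orange CDAHFD) and each line the mean of 4. Mmp15 on ND is higher in WT males than in WT females, and Timp3 on CDAHFD separates from ND only in Cyp2b-null males.

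Other genes of matrix turnover were read from the same fits, in lists chosen with earlier results of these data known. Of all genes tested, 13.9% to 20.3% were called higher and 10.2% to 17.1% lower in the 4 diet comparisons. Of the matrix substrates (collagens, elastic fibre proteins and other matrix genes), 19 of 21, 19 of 21, 21 of 22 and 21 of 22 tested were up-regulated in WT females, Cyp2b-null females, WT males and Cyp2b-null males, and 0, 1, 0 and 0 down-regulated, with medians of 1.6, 1.41, 1.83 and 2.05 on the log2 scale. Eln, elastin, a substrate of Mmp12 and of the lysyl oxidases, rose by 2.81, 2.41, 1.92 and 1.31 in the same order. Col3a1, a fibrillar collagen, rose by 3.23 in WT females and 3.4 in Cyp2b-null males. In the plasminogen system, whose end product plasmin activates pro-Mmps, 5, 4, 5 and 4 of 8 genes were up-regulated and 2, 1, 3 and 3 down-regulated. The activators Plat and Plau and the receptor Plaur rose in all 4 comparisons (Plau by 2.26 in WT females and 3.88 in WT males), while Plg, plasminogen itself, fell by 0.62 in both female comparisons, 0.55 in WT males and 0.42 in Cyp2b-null males.

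Among 16 tested proteases outside these families, 6, 8, 9 and 10 were up-regulated and 3, 2, 3 and 4 down-regulated. The cysteine cathepsins Ctsk and Ctss, which cut collagen and elastin, rose in all 4 comparisons (Ctsk by 2.84 in WT females and 3.88 in WT males), and Bmp1, the procollagen C-proteinase that also activates lysyl oxidase, fell in WT females, WT males and Cyp2b-null males (-0.40, -0.68 and -0.52). Among 9 tested protease inhibitors outside the Timp family, 3, 4, 3 and 4 were up-regulated and 2, 4, 3 and 3 down-regulated. Reck, a membrane-bound Mmp inhibitor, fell in Cyp2b-null females, WT males and Cyp2b-null males (-1.54, -1.27 and -1.72). Of the collagen-processing and crosslinking enzymes other than lysyl oxidases, 5 were up-regulated in each comparison, of 11 tested in females and 10 in males, and 1, 0, 0 and 0 down-regulated. Plod2, which hydroxylates the lysines that lysyl oxidases crosslink, rose by 2.32, 1.92, 2.43 and 2.85. In these 5 lists 0 genes were called between the genotypes on either diet.

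The 23 members that were tested in neither sex are given by the highest count in any library. It was 28 for Mmp9 (gelatinase B), 17 for Adamtsl5, 16 for Mmp8 and Mmp17, 10 for Mmp11, 9 for Adamts16, 8 for Adamts3 and Mmp28, 6 for Adamtsl3, 5 for Mmp25 and Adamts17, and 2 for Mmp3, Timp4 and Adamts8. It was 1 for Mmp1a, Mmp16, Mmp21, Adamts19 and Adamts20, and 0 for Mmp1b, Mmp10, Mmp20 and Adamts18. Mmp9 was tested in the fit of both sexes only, where the difference in its diet effect between WT males and WT females was 1.6 (SE 1.01, adjusted p = 0.658).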

How the data were processed

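The 32 libraries of liver RNA were sequenced as read pairs of 150 bases per end. According to the study's methods, the authors used FastQC for quality, Trimmomatic for trimming, GSNAP for alignment (genome GRCm38.p6) and Subread for counting, and deposited raw counts per gene, 1 table per sex; versions, strand and the treatment of reads with several matches are not given in the sources used here. Each library's total, from 2906411 to 10166959 counts, sets the precision of its values.

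The members and lists were chosen with earlier results of these data known. Counts were fitted by sex with edgeR 4.0.16 (limma 3.58.1, R 4.3.3): filterByExpr by group (minimum count 10, minimum total 15), TMM, the quasi-likelihood test and Benjamini-Hochberg adjustment over all genes tested (13226 in females, 13460 in males), with calls at an adjusted p under 0.05. The sexes were compared in 1 fit of all 8 groups (14020 genes). The fits were also run on simulated counts with the same spread for every gene. That run checks the code and does not test the calls given here. Fold changes against a group with 1 to 3 counts are given as ratios of counts with a 95% interval, and against 0 counts as bounds from a floor of 3. CPM per kb used the union of exons in a GRCm38 annotation, and promoter windows came from RefSeq. All values per library are given for the 12 members with the largest mean change among those called in all 4 diet comparisons and for members called between the sexes, log2 changes for members called in fewer, and the highest count for those not tested. Other genes were grouped as matrix substrates, the plasminogen system, other proteases, other inhibitors and collagen enzymes, and as markers of macrophages, stellate cells or fibroblasts, neutrophils, hepatocytes, endothelium, cholangiocytes, adipocytes, T cells, mesothelium and exocrine pancreas.

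Alternatives were RLE size factors, library size alone, DESeq2 1.42.0, no low-count filter, 1 CPM in 4 libraries, only the groups compared, a block for the replicate number, and fits without each library in turn or without the 2 libraries that the study's heat maps do not show. Libraries with the same replicate number deviated together (correlation over 0.1) in 3 of 24 pairs in females and 5 of 24 in males, so the numbers were not taken to pair them. Replicates differed by more than sampling noise in every pair (chi-square per degree of freedom 3.34 to 65.4).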

Additional observations from a re-analysis of the deposited data

Results flagged for a closer look

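Among 17 members in 8 groups, 136 groups of 4 libraries, 16 held a library far from the other 3 by the size of its gap relative to the group's range. For normally distributed values this cutoff marks about 1 group in 20. That rate does not apply to groups with a few counts, where 1 library alone with reads is flagged by construction.

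Most of the flagged libraries were ND libraries with a handful of reads. They were Lox at 1.35 CPM in ND-fed WT female replicate 3, 0 in ND-fed Cyp2b-null female replicate 1 and 0.137 in ND-fed WT male replicate 3. Mmp12 was at 0.335 CPM in ND-fed Cyp2b-null female replicate 4 and 0.911 in ND-fed Cyp2b-null male replicate 2. Mmp13 was at 0.993 CPM in ND-fed WT male replicate 2 and 0.667 in ND-fed Cyp2b-null male replicate 1, which also had 0.667 CPM of Mmp27 and, at 1.33 CPM, the lowest Adamtsl2 of its group. Mmp27 was at 0 in ND-fed WT female replicate 4, where Timp1 was at 0.517 CPM, and Timp1 was at 0.198 CPM in ND-fed Cyp2b-null female replicate 2.

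In better covered cases, ND-fed WT female replicate 4 was high for Mmp14 (84.5 CPM, the others 58.6 to 62.6) and for Timp2 (14.6 CPM, the others 12.8 to 13.0). CDAHFD-fed WT female replicate 4 was high for Mmp13 (13.7 CPM, the others 6.78 to 7.32), and CDAHFD-fed Cyp2b-null male replicate 3 for Mmp2 (20.9 CPM, the others 8.82 to 10.3).

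The diet effect differed between males and females, by the test of that difference in the 8-group fit, for Timp2 (log2 difference 1.20) and Timp3 (1.52) in Cyp2b-null mice and for Mmp15 (-0.76) in WT mice.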

How the results depend on the processing

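Of 101 calls of a member in a comparison, 79 held under every alternative and in every fit without 1 library, 16 were lost under at least 1 alternative and 21 in at least 1 fit without 1 library. The call that turned direction was Mmp19 in WT males (-0.38), at 0.00 (0.003029, adjusted p = 0.987) with scaling by library size alone. Without the low-count filter, 1 member instead of 0, Mmp14, was called for the genotype effect on ND and for the interaction, both in males. With library size alone 0 members instead of 1 were called for the difference between the sexes in the diet effect of WT mice. The cause was not tested.

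Without 1 library, the number of members called was 17 to 21 for the diet effect in WT females, 18 to 21 in Cyp2b-null females, 18 to 26 in WT males and 25 to 31 in Cyp2b-null males, the lowest in males without replicate 3 of the CDAHFD group. It was 0 to 2 for the difference between the sexes in WT mice, 1 to 3 in Cyp2b-null mice, 2 to 5 for the sexes on ND, and 0 to 0 for the other 7 comparisons (genotype effects, interactions and the genotype effect between the sexes).

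With the replicate number as a block, 1 member instead of 4 was called between the sexes on ND, and the diet effects had 19, 20, 22 and 29 calls (WT females, Cyp2b-null females, WT males, Cyp2b-null males) against 19, 21, 24 and 30; the libraries share only a number, and the block left the 0 calls of the genotype comparisons at 0.

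Summed without division by exon length, the CDAHFD to ND ratio of the Mmp sum was 2.09, 2.59, 2.07 and 3.02 in the same order (per kb 1.78, 2.17, 1.81 and 2.47), of the Timp sum 1.76, 1.44, 2.27 and 3.43 (2.85, 2.73, 3.51 and 5.20) and of the Adamts and Adamtsl sum in WT females 1.92 (1.74). The change of the Mmp to Timp ratio was 1.19, 1.84, 0.933 and 0.888 in place of 0.626, 0.820, 0.523 and 0.478, so it turned direction in females.

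Depth limits the low members: with 3 counts standing for up to 1.15 CPM, levels of Mmp12, Mmp13, Mmp27, Timp1 and Lox on ND are at or near the floor, and the sizes of their changes are uncertain. The 23 members tested in neither sex have no test of diet or genotype, and ratios such as those of Mmp8 cover counting error only. Each group has 4 libraries, cell makeup was not measured, and RNA levels do not give protease activity.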
